A study of Sus scrofa with 2 samples.

Results

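The cells described here were barcodes of pig granulosa preparations in which transcripts of an interferon response were abundant. They were chosen by the summed unique molecular identifiers (UMIs, each counting 1 captured transcript) of 4 interferon-stimulated genes, IFIT1, MX1, CMPK2 and RSAD2. A barcode was a member when it held 6 or more UMIs of these 4 genes, at least 1000 detected genes and under 7% of its UMIs from 13 mitochondrial genes. In AF75, 39 of 10302 barcodes within these limits were members, and in AF76, 40 of 9591, so that 79 of 19893 were described in all. The comparison was with barcodes within the same limits that held no UMI of the 4 genes, 9323 in AF75 and 8492 in AF76, called zero-sum barcodes below. Because the 4 genes chose the members, their values are given as a description and were not tested.

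Both samples were somatic cells of healthy antral follicles over 7 mm in diameter, taken from 1 Landrace × Yorkshire pig aged 210 days. The pig had received pregnant mare serum gonadotropin to induce follicle growth, which both follicles share, and there was no untreated follicle and no follicle exposed to interferon or to a virus. The follicles were punctured, the complexes of cumulus cells and oocyte were drawn off and treated with hyaluronidase, and the suspended cells were made into 1 droplet library per follicle with a 3' chemistry. With 2 follicles of 1 animal, the p-values below cover these follicles only and not the spread between animals. They rest mostly on a spread shared across genes, with 1 residual degree of freedom against a median of 29.9 prior degrees of freedom. Cells were never used as replicates.

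Type I interferons bind a receptor made of IFNAR1 and its partner chain, and the kinases JAK1 and TYK2 then phosphorylate transcription factors such as STAT2, which enters the nucleus with IRF9. The complex binds the interferon-stimulated response element, a promoter motif with repeated GAAA letters, and switches on a set of antiviral genes. Interferon gamma acts on a different motif, the gamma-activated site. Granulosa cells line the antral follicle, make inhibin and steroids, and surround the oocyte. Like most nucleated cells they carry interferon receptors.

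Members had more UMIs than the comparison, which bears on every count per barcode. The UMIs of a member ranged from 3173 to 35942 in AF75, with a median of 12269, against a median of 10927 in zero-sum barcodes. In AF76 the range was 2227 to 31493 and the median 14280, against 12853. Medians of detected genes were 3309 against 3105 in AF75 and 3625.5 against 3317.5 in AF76, and the median mitochondrial share of members was 2.21% and 2.80%. A doublet score placed 1 member of AF75 and 3 of AF76 among the 6.9% of barcodes with the highest scores. The libraries had 56 barcode sequences in common, of which 1 was a member in 1 library and none a member in both. Levels are therefore given in CPM, the UMIs of a gene per 1000000 UMIs summed over a class of barcodes. Intervals are 95% intervals of counting error only.

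The share of members was 0.379% (0.269% to 0.517%, Clopper-Pearson) in AF75 and 0.417% (0.298% to 0.567%) in AF76. With each barcode thinned to 3000 UMIs the share was 0.0907% in AF75 and 0.0341% in AF76, so the share depends on depth and on the limit of 6. The number of barcodes fell steeply with the sum and showed no gap at the limit. In AF75, 25 barcodes had a sum of 4, 19 a sum of 5, 9 a sum of 6 and 3 a sum of 7. In AF76 these numbers were 27, 18, 10 and 12. A sum of 6 to 9 was found in 21 of the 39 members of AF75 and in 34 of the 40 of AF76. Sums of 20 or more were found in 9 members of AF75 and 2 of AF76.

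**Figure D1:**
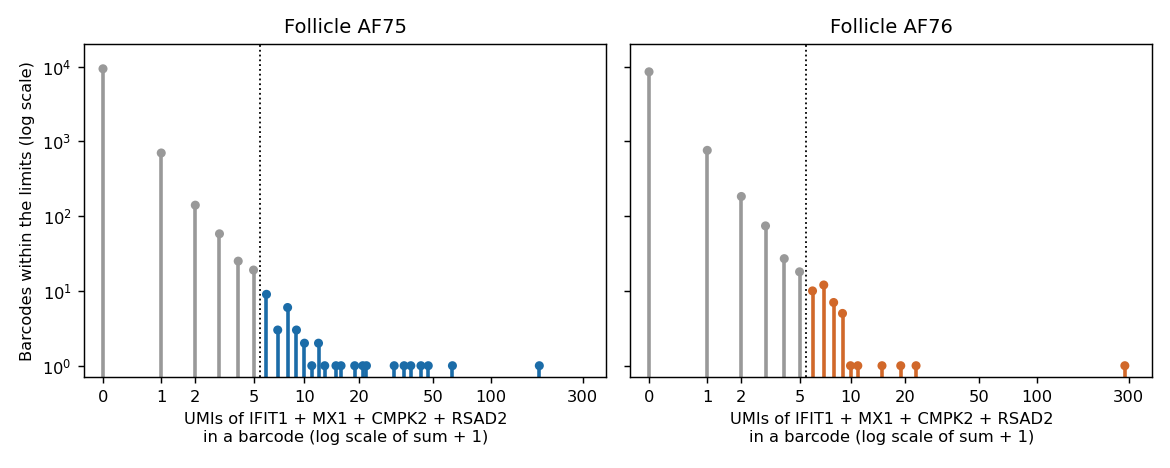
Number of barcodes within the limits (vertical, log scale) at each summed UMI count of IFIT1, MX1, CMPK2 and RSAD2 (horizontal, log scale of the sum plus 1) in the follicles AF75 and AF76, with members in colour to the right of the dotted limit. The counts fall without a gap at the limit, and a single barcode stands far to the right in each follicle, at 179 in AF75 and 287 in AF76.

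MX1, a GTPase that traps viral nucleocapsids, was the gene that most members were chosen on. All 79 members had an MX1 UMI, from 1 to 44 in AF75 with a median of 6, and the summed level of the members was 670 CPM in AF75 and 458 CPM in AF76. IFIT1, which binds viral RNA that lacks the methylated cap of host RNA, was found in 31 of 39 members of AF75 and 25 of 40 of AF76. Its summed level was 563 CPM in AF75 and 564 CPM in AF76, but 112 of 309 UMIs in AF75 and 246 of 328 in AF76 came from 1 barcode. CMPK2, a mitochondrial nucleotide kinase, had 20 UMIs in 16 members of AF75 and 10 UMIs in 7 members of AF76. RSAD2, or viperin, which makes an antiviral nucleotide, had 50 UMIs in 6 members of AF75 and 6 UMIs in 1 member of AF76. CMPK2 and RSAD2 lie head to head on chromosome 3 of Sscrofa11.1, with 5586 bases between their annotated starts. Members that owed their sum to MX1 alone numbered 6 in AF75 and 14 in AF76.

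The member of highest sum held 24.0% of the UMIs of the 4 genes in AF75 and 47.0% in AF76. Members just inside and just outside the limit overlapped in ISG15, which the rule did not use. At a sum of 5, ISG15 ranged from 8 to 141 UMIs with a median of 17 in AF75 and from 0 to 80 with a median of 20 in AF76. At a sum of 6 it ranged from 0 to 280 with a median of 5 in AF75 and from 3 to 109 with a median of 15.5 in AF76.

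Outside the limits, 1 barcode of AF75 and 2 of AF76 had a sum of 6 or more, all with under 1000 detected genes. Members held 21.3% of the ISG15 UMIs of all barcodes within the limits in AF75 and 10.6% in AF76. Their share was larger for other genes of the response outside the rule, such as CXCL10 (72.7% in AF75) and IFIT2 (74.2% in AF76), each nearly all from 1 member.

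ISG15 is a ubiquitin-like protein that is joined to other proteins during an interferon response, and it lies on chromosome 6 from 63363201 to 63364211. In members it was the most abundant interferon-stimulated transcript outside the rule, while in zero-sum barcodes B2M and IFI6 were higher. Its summed level was 8279 CPM in members and 96.2 CPM in zero-sum barcodes of AF75, a ratio of 86.1 (83.1 to 89.1, exact conditional interval). In AF76 it was 3531 CPM against 101 CPM, a ratio of 35.0 (33.4 to 36.7). By edgeR's quasi-likelihood test with the follicle as a block, the fitted log2 fold was 5.77 ± 0.17 (SE, 2 follicles, adjusted p = 1.66e-22). Per barcode, ISG15 ranged from 0 to 913 UMIs with a median of 45 in members of AF75 and from 1 to 283 with a median of 38 in AF76. The median of zero-sum barcodes was 0 in both follicles. The classes overlapped: the 99th percentile of zero-sum barcodes was 15 UMIs in AF75 and 19 in AF76, and 28 of 39 and 26 of 40 members were above it. The highest zero-sum barcodes had 147 and 173 UMIs. ISG15 was at 5 UMIs or fewer in 6 members of AF75 and 7 of AF76.

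An ISG15 UMI was found in 38 of 39 members (97.4%) and 33.0% of zero-sum barcodes in AF75, and in 40 of 40 members and 31.8% of zero-sum barcodes in AF76. Thinned to 3000 UMIs, which left out 366 and 761 zero-sum barcodes and 1 member of AF76, the shares were 89.7% against 15.6% in AF75 and 94.9% against 15.5% in AF76. How much of the ISG15 in zero-sum barcodes was free RNA was not tested. Members that held MX1 alone of the 4 genes had less ISG15 than the others in both follicles, 1729 CPM (1437 to 2062) against 9254 CPM (8983 to 9531) in AF75 and 2161 CPM (1972 to 2362) against 4391 CPM (4176 to 4613) in AF76. Both summed values of the members with MX1 alone were above the zero-sum level, but the AF75 value rested mostly on 1 barcode. It held 98 of the 123 ISG15 UMIs of these 6 members, whose median was 4, and 4 of them had 5 or fewer. In AF76 the 14 members with MX1 alone ranged from 2 to 100 UMIs with a median of 26.5, and 3 had 5 or fewer.

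The levels of ISG15, of HERC5 and of the interferon lists without the 4 genes and ISG15 were higher in steps with the sum, below the limit and above it. Other genes did not rise at every step. B2M in AF75 was at 839 CPM at 4 to 5 and 653 CPM at 6 to 9. In AF76 IFI27 was at 506 CPM at 6 to 9 and 389 CPM at 10 to 19. USP18 there was at 344 CPM at 10 to 19 and 193 CPM at 20 or more. ISG15 in AF75 was at 330 CPM in the 698 barcodes with a sum of 1, 782 CPM at 2, 1304 CPM at 3, 1737 CPM at 4 to 5, 3738 CPM at 6 to 9, 4102 CPM at 10 to 19 and 19448 CPM at 20 or more. In AF76 the same steps were 331, 569, 823, 1519, 2712, 4837 and 11941 CPM. The counting intervals of neighbouring steps did not overlap in AF76, and in AF75 they overlapped only between sums of 6 to 9 and 10 to 19. HERC5, the ligase that attaches ISG15 to proteins as they are made, went from 9.55 CPM at a sum of 1 to 55.5 CPM at 4 to 5 and 378 CPM at 20 or more in AF75. It went from 8.01 to 63.9 and 414 CPM in AF76. INHA, a granulosa hormone subunit, was lower at each step below the limit, at 19865, 18523, 17495, 15071 and 13819 CPM for sums of 0, 1, 2, 3 and 4 to 5 in AF75. The AF76 levels at those sums were 22909, 21652, 19773, 18185 and 17741 CPM. Above the limit INHA was between 18179 and 20659 CPM for AF75 and between 18526 and 21151 CPM for AF76. These classes are ordered by a readout of the same cells, so the steps are a description and carry no test.

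**Figure D2:**
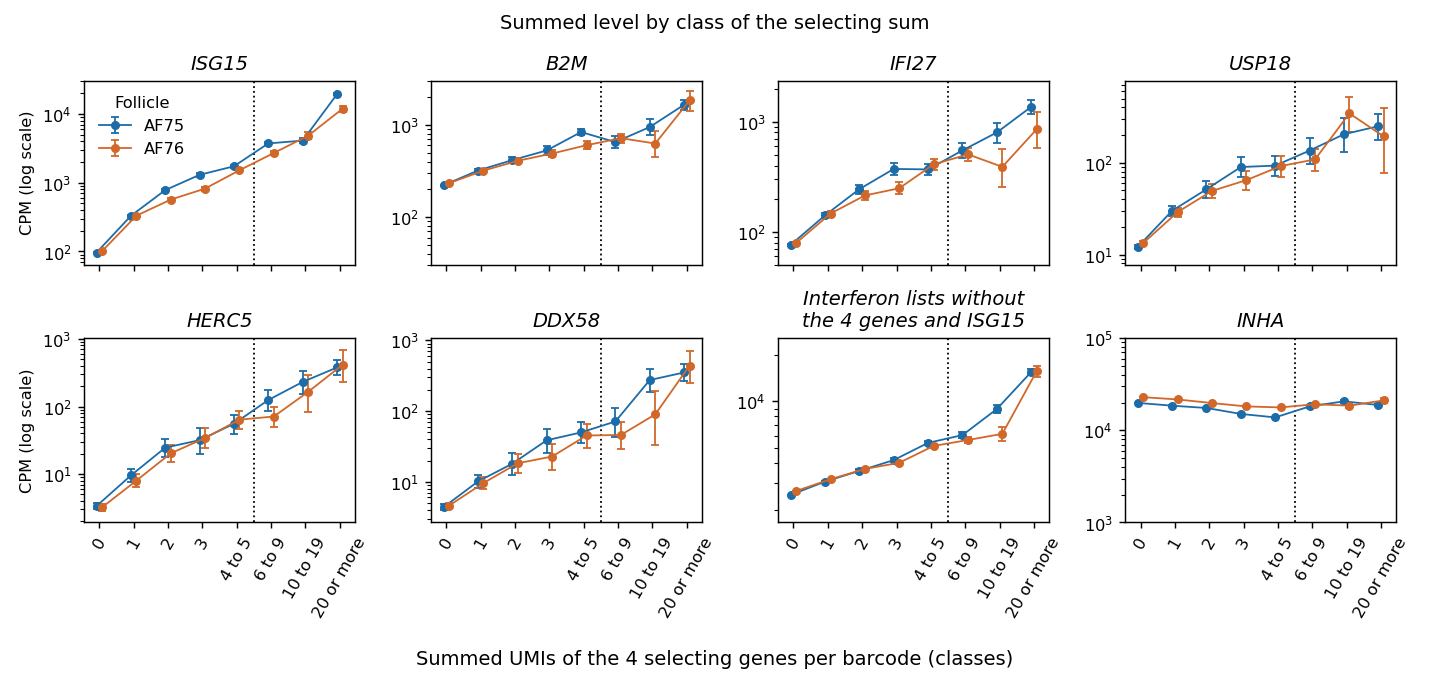
Summed level in CPM (vertical, log scale) of 6 interferon-stimulated genes, of the interferon lists without the 4 selecting genes and ISG15, and of INHA in classes of barcodes by the sum of the 4 selecting genes (horizontal), in AF75 (blue) and AF76 (orange), with bars for exact Poisson intervals of 95% and a dotted line at the limit for members. ISG15 climbs from 96.2 to 19448 CPM in AF75 and from 101 to 11941 CPM in AF76, while INHA lies between 13819 and 22909 CPM throughout.

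Across all genes, 7238 had a mean of 10 CPM or more over the 4 sums and were tested. Of these, 95 rose (1.31%) and 17 fell (0.235%) in members at an adjusted p under 0.05. The median fitted log2 fold of all tested genes was 0.0041. Without the follicle as a block 28 rose and 0 fell, with 512 genes at an unadjusted p under 0.05, and with DESeq2 51 rose and 5 fell. Of the 95, 93 were higher in members of both follicles. The exceptions were ARPP21 and CEMIP, each with no UMI in the members of 1 follicle. All 17 that fell were lower in both follicles. Of the 79 genes of the interferon lists that the deposited gene list names, 53 were tested, 38 rose, 0 fell and 15 did not pass, with a median log2 fold of 2.52. A gene under 10 CPM in the zero-sum barcodes of both follicles enters the test only through the members, so its p-value carries no weight. HERC5, DDX58, OAS2, BST2 and GBP1 below are such genes. Of the 31 tested list genes at 10 CPM or more in zero-sum barcodes of both follicles, 20 rose. The number of members' UMIs behind single genes was small, often under 100 per follicle, and 37 of the 38 had the larger ratio in AF75. That difference between follicles could not be tested, since it leaves no residual degrees of freedom.

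**Figure D3:**
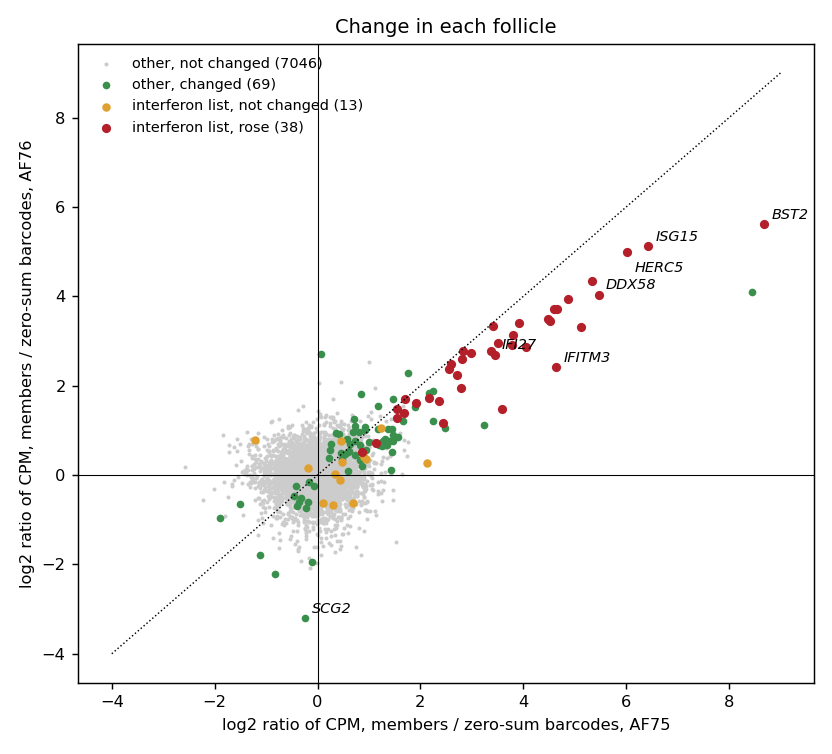
The log2 ratio of summed CPM, members to zero-sum barcodes, in AF75 (horizontal) and AF76 (vertical), for the 7166 tested genes with at least 3 UMIs in each of the 4 sums, with interferon list genes that rose in red, other changed genes in green and the dotted line at equal ratios. All 38 interferon list genes that rose lie above 0 in both follicles, and 37 of them lie to the right of the line of equal ratios.

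Genes of the ISG15 pathway had the largest median of the interferon lists, 4.25 on the log2 scale, and 6 of the 6 tested rose. Among them were 4 of the 4 at 10 CPM or more in both zero-sum classes. HERC5 and HERC6 were under 10 CPM there and entered the test only through the members. The median, the count of 6 and the p-values of HERC5 and HERC6 therefore carry no weight. HERC5, on chromosome 8 from 130532256 to 130591158, was at 219 CPM in members and 3.37 CPM in zero-sum barcodes of AF75 and at 103 against 3.22 CPM in AF76, a log2 fold of 5.53 ± 0.33 (edgeR, adjusted p = 4.3e-14). A HERC5 UMI was found in 71.8% of members and 3.29% of zero-sum barcodes in AF75 and in 52.5% and 3.52% in AF76. Its relative HERC6 rose by 4.85 ± 0.77. USP18, the protease that removes ISG15 and dampens signalling at the receptor, was at 182 against 12.1 CPM in AF75 and 141 against 13.4 CPM in AF76. The E2 enzyme UBE2L6 had a log2 fold of 3.49 ± 0.24 and the ligase TRIM25 of 2.78 ± 0.21. The E1 enzyme UBA7 had 1 UMI in all members and was not tested.

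Sensors of viral RNA were higher together, and 5 of 6 tested rose, among them 2 of the 3 at 10 CPM or more in both zero-sum classes. DDX58 encodes RIG-I, which recognizes RNA with a 5' triphosphate, and was at 193 CPM in members against 4.38 CPM in AF75 and at 75.7 against 4.61 CPM in AF76, a log2 fold of 4.80 ± 0.33 (edgeR, adjusted p = 2.17e-12). IFIH1, or MDA5, which binds long double-stranded RNA, was at 94.7 and 89.4 CPM against 8.91 and 8.84 CPM. DHX58, their regulator, rose by 3.36 ± 0.51 and the helicase ZNFX1 by 2.68 ± 0.16. DDX58, IFIH1 and DHX58 were under 10 CPM in zero-sum barcodes and entered the test only through the members. The kinase EIF2AK2, or PKR, which halts translation, was at 270 and 232 CPM in members, found in 34 of 39 and 35 of 40 barcodes, against 44.9 and 41.6 CPM. MAVS, the adaptor through which RIG-I and MDA5 signal, did not pass the test, at 12.7 and 13.8 CPM against 14.5 and 12.4 CPM. The sensors of DNA were scarce: CGAS and STING1 had 3 UMIs each, all in 1 member, and ZBP1 had none.

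Effectors that act on RNA had 4 of 5 tested genes raised, among them 3 of the 3 at 10 CPM or more in both zero-sum classes. IFIT5 was at 107 and 117 CPM against 33.1 and 35.8 CPM, ZC3HAV1, which marks viral RNA for decay, had a log2 fold of 1.76 ± 0.23, and PNPT1 of 1.41 ± 0.18. OAS2, which makes the second messenger of RNase L, was at 34.6 and 17.2 CPM against 1.19 and 1.12 CPM, from 19 UMIs in 7 members and 10 UMIs in 5 members. Its adjusted p was 0.0226 by edgeR and 0.186 without the follicle as a block. OASL had no UMI in members and ISG20 had 8 and 2, too few for the test. Members of the IFIT, MX, OAS and GBP families resemble each other in sequence, and how reads of near copies were divided was not checked.

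Among membrane proteins and other effectors, 10 of 12 tested rose by edgeR and 8 by DESeq2, with 6 of the 8 at 10 CPM or more in both zero-sum classes among the 10. IFI27 was at 832 and 514 CPM against 76.3 and 79.4 CPM, in 35 of 39 and 38 of 40 members, with a log2 fold of 3.07 ± 0.13 (edgeR, adjusted p = 1.06e-17). IFITM3, which blocks the entry of enveloped viruses, was at 392 and 129 CPM against 15.7 and 24.3 CPM. IFI6 was at 1162 and 480 CPM against 215 CPM in both follicles, with adjusted p = 0.359 by DESeq2 and 0.355 without the block. SHISA5 rose by 0.68, a call lost in 9 alternatives, DESeq2 among them. EPSTI1 was at 158 and 96.3 against 7.06 and 8.55 CPM, and IFI44L at 107 and 99.8 against 16.4 and 21.0 CPM. BST2, or tetherin, which holds budding virions at the cell surface, had the largest fitted fold among the genes that passed, 7.23 ± 1.89 (edgeR, adjusted p = 0.042). It had 49 UMIs in 12 members of AF75 and 11 in 8 of AF76. At 0.217 and 0.385 CPM in zero-sum barcodes, BST2 entered the test only through the members. Without the barcode of highest sum in each follicle, a choice made after seeing the data, its adjusted p was 0.11. SAMHD1 and NT5C3A did not pass the test.

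Transcription factors of the response had 5 of 7 tested genes raised, among them 3 of the 5 at 10 CPM or more in both zero-sum classes. STAT2 had a log2 fold of 1.50 ± 0.30, with adjusted p = 0.00307 by edgeR, 0.0604 by DESeq2 and 0.155 without the barcodes of highest sum. IRF7, the factor that drives further interferon transcription, was at 67.4 and 46.4 CPM against 4.83 and 5.29 CPM. PML and SP110, of nuclear bodies, rose by 2.85 ± 0.38 and 2.40 ± 0.29. IRF9, the DNA-binding partner of STAT2, had no UMI in any member and under 1 CPM in zero-sum barcodes. IRF2 and NMI did not pass. Of the ADP-ribosyltransferase list PARP9, its partner DTX3L and PARP12 rose. They were under 5 CPM in zero-sum barcodes and entered the test only through the members, so their number carries no weight. PARP14 had 12 UMIs in 6 members of AF75 and none in AF76. Of the feedback inhibitors 0 of 3 tested changed by edgeR and 0 by DESeq2, with 0 at an unadjusted p under 0.05 by either, and SOCS3 was at 102 and 79.1 CPM against 74.9 and 84.8 CPM. SOCS1 had 1 UMI in all members.

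Class I antigen presentation had 3 of 7 tested genes raised, the peptide transporter TAP1, B2M and the proteasome activator PSME2. Of the 5 at 10 CPM or more in both zero-sum classes, 2 rose. TAP1 was at 131 and 79.1 CPM against 5.39 and 6.05 CPM, a log2 fold of 4.16 ± 0.30. B2M, the light chain of class I molecules, was at 1000 CPM and 779 CPM against 222 and 234 CPM, a log2 fold of 1.94 ± 0.11 (edgeR, adjusted p = 4.76e-15). PSME2 rose by 0.91 ± 0.13, and PSME1, TAPBP, PSMB10 and CALR did not pass. Of class II only CD74 was tested and it did not pass. CD74, the invariant chain, was at 9.11 and 15.5 CPM against 12.6 and 14.4 CPM, and CIITA, SLA-DQB1 and SLA-DMA had no UMI in members. Of the GTPases, RNF213 was at 215 and 126 CPM against 9.42 and 11.5 CPM. GBP1 was called, but 55.2% of its UMIs in members came from 1 barcode, and without the barcodes of highest sum its log2 fold was 1.57 with an adjusted p of 0.096.

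Interferons themselves were at or near 0. IFNB1, IFNA1, IFNG and IFNK had no UMI in the 79 members, whose 1130467 UMIs allow a level of up to 2.65 CPM at 3 counts. IFNE, an epithelial interferon of the reproductive tract, had 4 UMIs in the members of each follicle, 7.28 and 6.88 CPM, against 7.21 and 6.50 CPM in zero-sum barcodes. Receptors and kinases had 0 of 6 tested genes changed by edgeR and 0 by DESeq2, with 1 at an unadjusted p under 0.05 by either and a median log2 fold of 0.10. IFNAR1 was at 155 and 122 CPM against 131 and 132 CPM, IFNGR1 at 49.2 and 63.6 against 49.5 and 51.9 CPM, and JAK1 at 422 and 411 against 332 and 342 CPM, a log2 fold of 0.29 ± 0.11 that did not pass (edgeR, adjusted p = 0.249).

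Several genes that textbooks place in this response were present in single members. CXCL10, the chemokine that draws T cells and 1 of the 5 markers of the label, had 72 UMIs in 1 member of AF75 whose sum was 11, and none in any other member. CCL5 had 30 UMIs in AF75, of which 29 were in another member, with a sum of 21, and none in AF76. MX2 had 24 UMIs, all in the AF75 member of highest sum, and IFIT2 had 49 in the AF76 member of highest sum and 1 elsewhere. None of these 4 passed the test as fitted. CXCL10 passed in 7 alternatives, IFIT2 in 4 (with adjusted p = 0.0177 by DESeq2) and CCL5 and MX2 in 3 each. TNFSF10, or TRAIL, a death ligand, was spread more widely, with 12 UMIs in 5 members of AF75 and 9 in 3 of AF76. It was at 21.9 and 15.5 CPM against 0.236 and 0.0866 CPM, and was under the mean needed for the test.

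**Figure D4:**
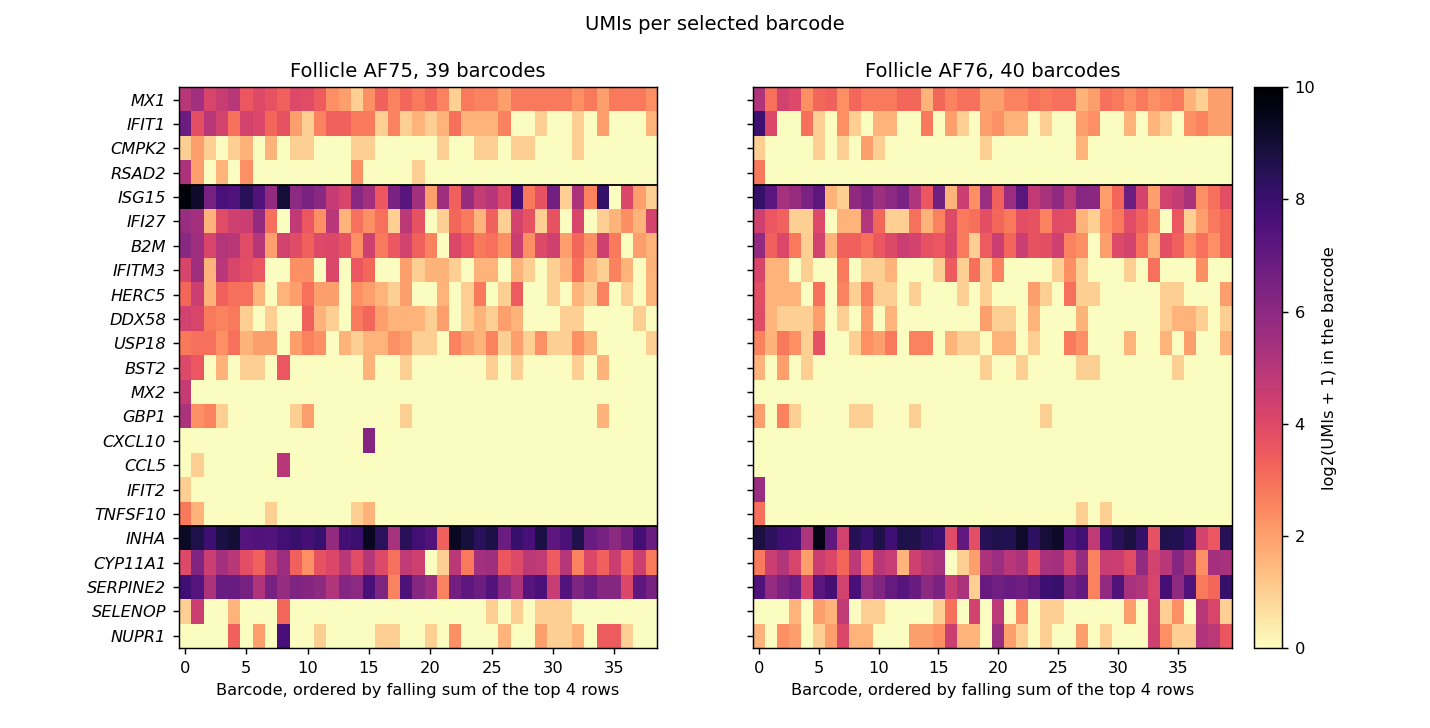
UMIs of each member barcode (columns, ordered by falling sum of the top 4 rows) for the 4 selecting genes, 14 other interferon-linked genes and 5 genes of granulosa cells or of low-INHA barcodes (rows, parted by lines), as log2 of UMIs plus 1. ISG15 fills nearly every column, CXCL10, CCL5, MX2 and IFIT2 each have all or nearly all of their UMIs in 1 column, and a few AF76 columns with low INHA have high SELENOP and NUPR1.

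Promoter letters were a feature that the rule did not use, but the list genes were picked as genes of this response. Their promoter letters are therefore a description and lend the selection no support. The 300 bases from 250 before to 50 after each annotated start were searched on both strands for GAAANNGAAA, the core of the interferon-stimulated response element, where N is any base. It was present in 695 of 19509 protein-coding genes placed on chromosomes (3.56%) and in 15 of the 34 raised list genes with a promoter sequence (44.1%). It was present in 4 of the 15 tested list genes that did not pass (26.7%), in 0 of 48 other genes that rose and in 0 of 15 that fell. Of the 4 selecting genes, IFIT1 and RSAD2 had it, and MX1 and CMPK2 did not have these letters in this window. TTCNNNGAA, the core of the gamma-activated site, was in 2 of the 34 raised list genes (5.88%) and in 7.09% of all. A match is a description of letters and not a binding site. The stretches below are RefSeq sequence of Sscrofa11.1 from 30 bases before to 30 bases after a match, or up to the gene start or the edge of the window. They show a selecting gene (RSAD2), ISG15 itself, the ligase that attaches it (HERC5), the protease that removes it (USP18), a sensor (IFIH1) and the marker found in 1 member (CXCL10). Capitals mark the motif letters on either strand.
RSAD2, chr3:128897900-128897969, minus strand: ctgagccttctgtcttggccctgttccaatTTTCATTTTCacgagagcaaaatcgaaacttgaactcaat
ISG15, chr6:63363063-63363132, plus strand: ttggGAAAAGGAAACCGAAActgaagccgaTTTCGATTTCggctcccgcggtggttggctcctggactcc
HERC5, chr8:130591214-130591283, minus strand: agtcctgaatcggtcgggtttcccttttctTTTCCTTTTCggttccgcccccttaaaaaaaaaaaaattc
USP18, chr5:70183148-70183217, plus strand: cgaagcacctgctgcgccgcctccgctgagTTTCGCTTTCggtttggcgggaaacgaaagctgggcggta
IFIH1, chr15:68985146-68985198, minus strand: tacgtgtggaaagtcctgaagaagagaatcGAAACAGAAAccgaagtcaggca
CXCL10, chr8:71696134-71696198, minus strand: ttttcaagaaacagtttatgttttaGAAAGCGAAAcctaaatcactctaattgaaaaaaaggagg
In ISG15 overlapping matches lie 134 and 128 bases before the start and another on the other strand begins 108 bases before it. In RSAD2 the match begins 130 bases before the start, in HERC5 95, in USP18 143, in IFIH1 23 and in CXCL10 225.

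The label calls these cells granulosa cells, and the abundant granulosa genes were close to their levels in zero-sum barcodes. INHA, the inhibin alpha subunit, was at 18874 and 19254 CPM against 19865 and 22909 CPM in zero-sum barcodes. It fell slightly, by 0.18 on the log2 scale (SE 0.04, edgeR, adjusted p = 0.0193), and the adjusted p was 0.0542 without TMM scaling and 0.825 without the follicle as a block. CYP11A1, which makes pregnenolone, was at 1457 and 1696 CPM against 1704 and 1692 CPM. SERPINE2, CDH2 and NR5A2 had log2 folds of 0.03, 0.03 and 0.06, and 12 of 14 tested genes of this list did not pass. INHBA rose by 0.36 by edgeR, with a ratio of 1.51 (1.43 to 1.58) in AF75 and 1.07 (0.957 to 1.20) in AF76, and DESeq2 called 0 of the 14. AMH had no UMI in members and at most 0.00962 CPM in zero-sum barcodes, and FSHR was at 3.64 and 5.16 CPM, so these were too scarce to serve as markers, and FOXL2 was not matched in the gene list. Of the mural list IL33 and SCG2 fell by edgeR and 7 of 9 tested genes did not pass. DESeq2 called 0 of the 9 (lowest adjusted p 0.0629). Over the alternatives SCG2 lost its call in 7 and IL33 in 3. IL33, at 1987 and 1710 CPM against 2273 and 2597 CPM, was 0.14 higher on the log2 scale when members needed a sum of 10. SCG2 was at 319 and 72.2 CPM against 377 and 664 CPM, and was 0.45 higher against zero-sum barcodes nearest in other genes. AREG was at 2644 and 4371 CPM against 2754 and 5215 CPM. Of 6 tested cumulus genes 3 rose by edgeR (SHAS2, ARPP21 and CEMIP) and 1 by DESeq2 (CEMIP), and 6 had an unadjusted p under 0.05 by edgeR. None of those that rose was at 10 CPM or more in both zero-sum classes. VCAN was at 2460 and 440 CPM against 1978 and 414 CPM, and TNFAIP6 did not pass.

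Members of AF76 included 6 barcodes with INHA between 1490 and 2276 CPM, while no member of AF75 was under 2500 CPM. These 6 had sums of 6 to 9, ISG15 from 1 to 7 UMIs, SELENOP from 7 to 30 UMIs and NUPR1 from 2 to 34 UMIs. Their ISG15 level was 431 CPM (267 to 659) against 3815 CPM (3651 to 3984) in the other 34 members of AF76. The interferon lists without the 4 genes summed to 7292 CPM in these 6, 10098 CPM in the other 34 and 2754 CPM in zero-sum barcodes of AF76. That zero-sum value was over barcodes of any INHA level. How much of the difference went with low INHA was not tested. INHA of 5000 CPM or more was found in 34 of 40 members and 7428 of 8492 zero-sum barcodes of AF76, so low INHA was not particular to members. With only barcodes at 5000 CPM or more of INHA, a choice made after seeing the data, 116 genes rose and 26 fell, among them all 38 interferon list genes.

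Of the leukocyte list, PTPRC, CSF1R, LAPTM5, TYROBP, FCER1G, CD3E and CD79B had no UMI in members. Of the 17 genes of that list 13 had none. The list summed to 18.2 and 8.60 CPM in members against 12.6 and 14.8 CPM in zero-sum barcodes, mostly CD14. No UMI of the list was found in 31 of 39 members and 8237 of 9323 zero-sum barcodes of AF75. For AF76 this held for 37 of 40 and 7525 of 8492. The floor of 3 counts stood at 5.46 and 5.16 CPM for members of the 2 follicles. With list sums this low, the lack of a marker UMI does not set members apart from zero-sum barcodes. COL1A1, PDGFRA and CYP17A1, of stroma and theca, and CDH5, of endothelium, were also at 0 in members, under the same floor. INSL3 was at 457 and 470 CPM against 309 and 484 CPM and did not pass the test. The theca or stroma list summed to 459 and 492 CPM in members against 312 and 496 CPM, and the endothelial list to 14.6 and 13.8 CPM against 16.8 and 11.8 CPM. Of 7 oocyte genes only GDF9 had UMIs, 4 and 1. HBB, of red cells, fell by edgeR, at 1.82 and 5.16 CPM against 2.62 and 57.7 CPM. The members' values rest on 1 and 3 UMIs, and the adjusted p was 0.235 by DESeq2.

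**Figure D5:**
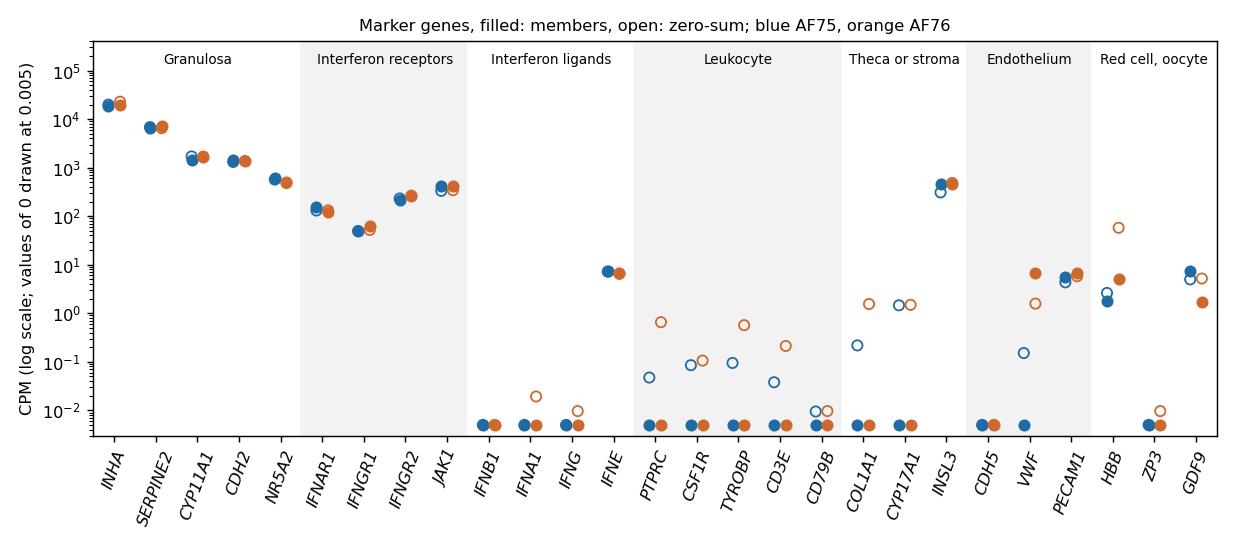
Summed level in CPM (vertical, log scale, with values of 0 drawn at 0.005) of marker genes in members (filled) and zero-sum barcodes (open) of AF75 (blue) and AF76 (orange), grouped by cell type or role. Granulosa and receptor genes lie close together in both classes, and the 5 leukocyte markers drawn have no UMI in members.

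Of the 95 genes that rose, 57 were outside the interferon lists. The genes named here from them were chosen after their values were seen. They included the RNA helicase MOV10 (log2 fold 1.09 ± 0.19), TDRD7 (1.36 ± 0.27) and N4BP1 (1.19 ± 0.19). The stress factor ATF3 rose by 1.05 ± 0.25 by edgeR, 1 of 10 tested in its list, while DESeq2 called 0 (lowest adjusted p 0.585), and the heat shock genes HSPA8 and HSP90AA1 had folds of -0.02 and -0.03. Of 11 tested cholesterol synthesis genes 0 changed by edgeR and 0 by DESeq2, with 2 and 0 at an unadjusted p under 0.05. Of 4 tested cell division genes 0 changed by either, with 1 at an unadjusted p under 0.05 by each. Others that rose rested on few barcodes: 1 member held 66.7% of the MT3 UMIs, 71.1% of CEMIP and 43.1% of NUPR1. SELENOP was at 67.4 and 292 CPM against 24.4 and 157 CPM. In AF75, 1 member held 21 of its 37 UMIs. In AF76 the 6 members of low INHA held 7 to 30 each of its 170. Against zero-sum barcodes nearest in other genes, the adjusted p of SELENOP was 0.103 by edgeR. A gene with no symbol, ENSSSCG00000032436, was at 98.3 and 46.4 CPM against 0.284 and 2.70 CPM, from 19 members.

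Of the 17 genes that fell, the following were named by the size of their fold. GCG was at 83.8 and 239 CPM against 314 and 464 CPM, a log2 fold of -1.33 ± 0.15, but 63.8% of its UMIs in members came from 1 barcode, and the fold was 0.04 when members needed a sum of 4. The metallothionein MT1A, which binds zinc and copper, was at 4318 and 1644 CPM against 5671 and 2678 CPM, a log2 fold of -0.56 ± 0.07 (edgeR, adjusted p = 8.89e-07). S100A10 was at 974 and 950 CPM against 1337 and 1318 CPM, LXN at 716 and 659 against 898 and 939 CPM, and DDIT4, a target of stress signalling, at 550 and 487 against 639 and 813 CPM. CITED1 fell by 1.03, ACTG2 by 0.91 and TPI1 by 0.49 on the log2 scale. DESeq2 called none of these 3 and did not call DDIT4 (adjusted p = 0.0891). DDIT4 lost its call in 7 alternatives, TPI1 in 8 and CITED1 in 5. ACTG2 had 54.2% of its UMIs in members in 1 barcode, lost its call in 10 alternatives and had a fold of -0.19 against barcodes nearest in other genes. When members needed a sum of 10, 1 gene fell, and without the follicle as a block none passed.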

How the data were processed

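Suspended cells of 2 antral follicles of 1 pig were profiled as 1 droplet library per follicle. The authors deposited a gene by barcode matrix of raw UMI counts per library, made with Cell Ranger 6.0.2 on Sscrofa11.1 per the labels and the study's methods. The count per library was 125409747 UMIs over 14289 barcodes (AF75) and 127414267 over 15548 (AF76). The members and gene lists were chosen with earlier results of these data known. Of 22342 genes, 14986 carried a symbol, and 1042 more were named from the RefSeq table.

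UMIs were summed per follicle and class. Genes with a mean of 10 CPM or more over the 4 sums were tested with edgeR 4.0.16 (R 4.3.3) by its quasi-likelihood test with TMM factors, the follicle as a block, 1 residual degree of freedom moderated across genes and Benjamini-Hochberg adjustment at 0.05. The block rests on both classes coming from the same follicle. The 4 selecting genes were left out of the test. Genes were named by list (those of largest and smallest fitted fold, and defining markers of other cell types) and by size (the 15 largest rises and 10 largest falls at 50 CPM or more in both sums of 1 class). Other named genes were chosen after their values were seen. Intervals are Clopper-Pearson, exact Poisson or exact conditional, and with floors of 3 counts cover counting error only. DESeq2 1.42.0 was an alternative. Doublet scores came from Scrublet in scanpy 1.11.5, and the 6.9% highest were removed only as an alternative.
Some measured genes are not reported here.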

Additional observations from a re-analysis of the deposited data

Results flagged for a closer look

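Some genes moved in opposite directions in the follicles, a difference that was not tested. FST, which binds activin, had a ratio of members to zero-sum barcodes of 1.52 in AF75 and 0.695 in AF76. For SPP1 the AF75 ratio was 10.7 and the AF76 ratio 0.124, and its 35 UMIs in AF75 members were all in 1 barcode. GADD45A was lower in members of AF75 (ratio 0.746) and higher in those of AF76 (1.15). Barcodes outside the limits that held 6 or more UMIs of the 4 selecting genes numbered 1 in AF75 and 2 in AF76, with 716 to 916 detected genes.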

How the results depend on the processing

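Of 95 rises and 17 falls, the counts were 28 and 0 with no replicate block, 51 and 5 with DESeq2, 59 and 19 at a sum of 4 or more, 57 and 1 at 10 or more, and 59 and 6 against zero-sum barcodes nearest in UMIs. Chosen after seeing the data, omitting the highest sum in each follicle gave 57 and 14, and INHA of 5000 CPM or more gave 26 falls. Falls numbered 39 with no filter, 36 at a mitochondrial limit of 10%, 28 against barcodes nearest in other genes and 26 with no leukocyte UMI. Of the 38 interferon list genes, 28 kept their call with no replicate block, 35 with DESeq2, 32 at a sum of 4 or more, 32 without the highest sums and 37 or 38 otherwise. Shares of members were 0.806% and 0.886% at a sum of 4 or more, 0.175% and 0.0626% at 10 or more, 0.0907% and 0.0341% when thinned, and 0.270% of all AF76 barcodes. Thinned shares with a UMI were 15.6% and 15.5% for ISG15 in zero-sum barcodes, and for HERC5 38.5% and 20.5% in members and 1.11% and 0.776% in zero-sum barcodes. The mean ISG15 per barcode in AF76 was 4340 CPM. Reversed log2 folds were 0.14 for IL33 and -12.51 for CEMIP at a sum of 10 or more, 0.036 for GCG at 4 or more, 0.45 for SCG2 and 0.021 for GCG against barcodes nearest in other genes, and -0.10 for CEMIP without doublet scores. The cause was not tested. Leaving out a follicle left no residual degrees of freedom, so it gave values with no test. Of the named changed genes with a value, 0 of 55 reversed with AF75 alone and 0 of 56 with AF76 alone. CEMIP had no UMI in AF75 members, so it had no value with AF75 alone.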

Other observations

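HES4, a transcriptional repressor next to ISG15 in the genome, had 10 UMIs in 3 members of AF75 and 17 in 3 members of AF76. It was at 18.2 and 29.2 CPM against 0.0473 and 0.0192 CPM in zero-sum barcodes, and did not pass (edgeR, adjusted p = 0.531). It was chosen after its values were seen.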
